A study of Mus musculus with 2 samples.

Results

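Arginine and nitric oxide metabolism is described here through 8 genes chosen by symbol: Nos2, Slc7a2, Gch1, Ass1, Asl, Arg1, Arg2 and Odc1. All 8 were found, out of 55536 annotated genes, and each matched a single gene identifier. The data are 2 libraries of polyA-selected RNA from mouse bone marrow-derived macrophages, that is, macrophages grown in culture from the marrow of C57BL/6J mice. Both libraries belong to 1 group. By the written description, these cells were pre-treated with 100 ng/ml of Lipid A, the lipid part of lipopolysaccharide, over 12 h. A 12 h period after wash-out followed, and then a further 300 min with 100 ng/ml. The structured treatment field instead names the agent lipoprotein A and types it as a protein. The labels do not settle which is meant, and they give neither sex nor age. The libraries are biological replicates 1 and 2, with separate biosample identifiers but the same donor identifier, so their spread may be smaller than that between animals. No sample at another stage of the exposure was analysed here, so the values are levels and replicate differences, and no response to the treatment was tested.

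Macrophages can spend arginine along competing routes. The inducible nitric oxide synthase, encoded by Nos2, turns it into nitric oxide and citrulline with the help of the cofactor tetrahydrobiopterin, and is a textbook gene of macrophages activated by bacterial products. Slc7a2 encodes the cationic amino acid transporter CAT2, which brings arginine into the cell, and Gch1 encodes GTP cyclohydrolase, the entry enzyme of tetrahydrobiopterin synthesis. Argininosuccinate synthase (Ass1) and argininosuccinate lyase (Asl) rebuild arginine from citrulline. The arginases, cytosolic Arg1 and mitochondrial Arg2, split arginine into urea and ornithine, and ornithine decarboxylase (Odc1) turns ornithine into putrescine, the precursor of the other polyamines. Arg1 is also a common marker of macrophages activated by interleukin-4.

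The transcripts of Slc7a2 divide by a pair of alternative coding exons, and these are the sequences on which the isoform results below turn. Slc7a2 lies on mouse chromosome 8, from 40862396 to 40922308 on the plus strand of mm10. Slc7a2-202 and Slc7a2-203 carry an exon of 140 bases at chr8:40908056-40908195, whereas Slc7a2-201 and Slc7a2-204 carry one of 137 bases at chr8:40908398-40908534. Each is coding throughout, and 202 bases lie between them. Both are given 5′ to 3′ from the GENCODE M21 transcript sequences, and capitals mark the bases that differ, or have no partner, in a global alignment of the pair.
Exon of 140 bases: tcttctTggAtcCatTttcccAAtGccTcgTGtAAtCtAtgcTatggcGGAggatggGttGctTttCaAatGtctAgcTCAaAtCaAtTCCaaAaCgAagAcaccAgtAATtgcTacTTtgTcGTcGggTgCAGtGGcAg
Exon of 137 bases: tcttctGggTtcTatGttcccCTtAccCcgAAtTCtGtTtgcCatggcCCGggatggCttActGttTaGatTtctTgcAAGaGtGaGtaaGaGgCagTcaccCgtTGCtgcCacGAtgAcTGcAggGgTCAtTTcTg
The alignment paired 84 identical bases and 53 differing bases, with 3 bases unpaired, so 60.0% of its 140 columns were identical. CAT2 is known to be made in forms that differ in this stretch and in their affinity for arginine. The files do not say which exon belongs to which named form, so the exons are named by length here.

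The synthase, the cofactor enzyme, the recycling enzymes and Odc1 were present in both libraries, CAT2 was lower, and the arginases were at or near the detection limit. Of the 8 genes, 5 reached 10 TPM (a transcript abundance scaled for length and library) in both libraries. Among all annotated genes 11.2% did so, and among genes with a protein-coding transcript 27.5%. Counting from 1 TPM, 6 of the 8 did so in both libraries, beside 19.1% of all annotated genes and 44.6% of those with a protein-coding transcript. No member reached 100 TPM in both, where 2.22% of all annotated genes and 5.45% of those with a protein-coding transcript did. The median of the 8 mean levels was 32.4 TPM (23.2 and 41.6 TPM in replicates 1 and 2), beside medians of 0 TPM over all annotated genes and 10.9 TPM over the 12543 genes that passed a filter on low counts (filterByExpr).

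Nos2 (chromosome 11, 78920787 to 78960254) stood at 49.6 TPM in replicate 1 against 120.3 TPM in replicate 2. By its mean of 85.0 ± 50.0 TPM (SD, n = 2) it held rank 1548 of all annotated genes, but its rank moved from 2454 in replicate 1 to 1149 in replicate 2. All of its reads were assigned to the full-length transcript Nos2-201, and the short Nos2-202 and the coding Nos2-203 were listed at 0 in both libraries. The other nitric oxide synthases were almost without reads: Nos3, the endothelial enzyme, had 2 and 5 counts, and Nos1, the neuronal enzyme, had 0 in both.

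Ass1 (chromosome 2, 31470207 to 31520672) was likewise low in replicate 1 and high in replicate 2, at 19.9 and 45.6 TPM. Its partner Asl (chromosome 5, 130011258 to 130029247) stood at 26.5 and 37.6 TPM. Thus Ass1 was under Asl in replicate 1 and over it in replicate 2, and the order of the recycling enzymes differed between the libraries.

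The Asl difference in TPM was larger than its difference in reads, which were 1492 and 1569 expected counts. In replicate 2 the 644-base non-coding transcript Asl-204 was given 131 counts and 27.3% of the Asl TPM, against 0 counts in replicate 1. The second quantification, made by the authors directly from the sequencing reads, gave it 72.8 counts and 14.9% in replicate 1 and 201 counts and 33.3% in replicate 2. The effective length of the gene, to which its TPM is scaled, was 1549 bases in replicate 1 but 1257 in replicate 2. The leading coding transcript, Asl-205, was level between the libraries at 23.2 and 22.9 TPM.

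Gch1 (chromosome 14, 47153895 to 47189413) was the only member with a lower value in replicate 2, at 56.2 TPM in replicate 1 against 46.5 TPM in replicate 2. Gch1-201, which is coding, held 98.3% ± 0.965 of the gene and the retained-intron transcript Gch1-202 the rest. The synthase, which differed the other way, was slightly under its cofactor enzyme in replicate 1, at 0.883 times its TPM, and 2.59 times over it in replicate 2.

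Odc1 (chromosome 12, 17544794 to 17551505) differed little between the libraries, at 60.6 and 71.8 TPM. Odc1-201, the full-length coding transcript, held 83.8% ± 0.586 of its TPM. A transcript annotated for nonsense-mediated decay, Odc1-205, held 11.4% ± 0.454, but 5.64% ± 0.506 in the second quantification. The first quantification, used for every value unless named otherwise, was made from a transcriptome alignment.

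Slc7a2 stood at 6.53 TPM in replicate 1 against 13.1 TPM in replicate 2, from 1665 and 2875 counts. Its level was below those of the 5 more abundant members in both libraries. It exceeded Slc7a1, the widely expressed cationic amino acid transporter CAT1, at 4.0 and 5.46 TPM.

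The arginases were the lowest members. Arg1 (chromosome 10, 24915221 to 24927484) had no counts in replicate 1 (0) and 3 in replicate 2. In replicate 1 a count of 0 leaves room for 3 counts by the limit used here, which is 0.0594 CPM (the count relative to the whole library), and the 3 counts in replicate 2 were 0.0647 CPM with an exact 95% interval of 0.0133 to 0.189. Arg2 (chromosome 12, 79130777 to 79156301) had 7 and 22 counts, or 0.170 and 0.570 TPM. Intervals and limits here cover counting error only, since reads without molecular identifiers are not independent molecules.

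Nos2 was therefore at least 728-fold higher than Arg1 in replicate 1, per transcript length and against the level that 3 counts of Arg1 in that library would give. In replicate 2 the ratio was 1617, with an interval of 553 to 7841 from the 3 counts of Arg1. Over Arg2, the Nos2 level was 292-fold higher in replicate 1 and 211-fold higher in replicate 2. Arg2 overlaps Vti1b and the antisense gene Gm48780 on the opposite strand, and no source used here states how strand was handled. Its expected counts were whole numbers in both libraries, and whether its few reads include any from those genes was not tested.

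**Figure D1:**
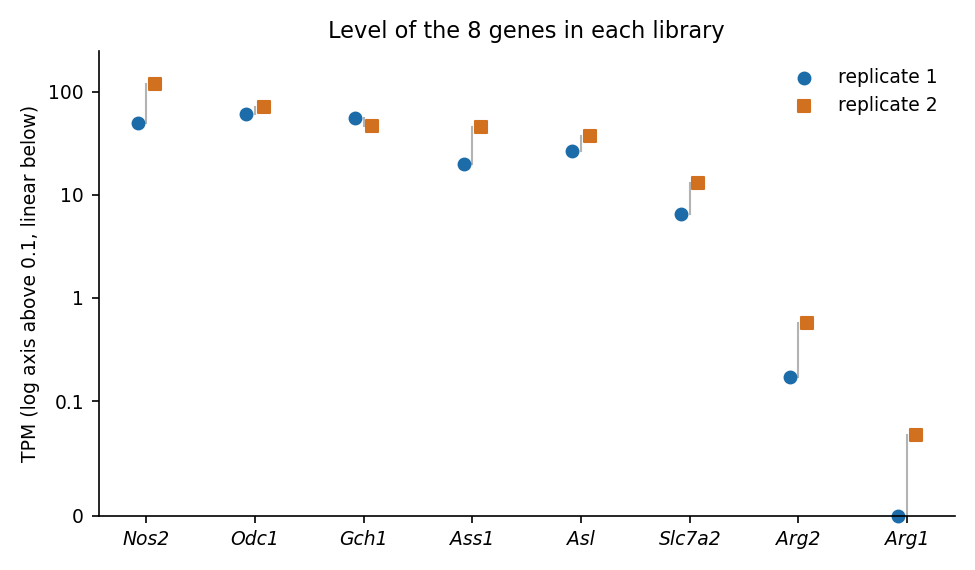
Level of each of the 8 genes in TPM (vertical axis, logarithmic above 0.1 and linear below), with a circle for replicate 1, a square for replicate 2 and a line joining them. Genes are ordered by mean level, from Nos2 at 85.0 TPM to Arg1 at 0.0350 TPM, and Gch1 alone has its square below its circle.

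By mean level the order was Nos2, Odc1, Gch1, Ass1, Asl, Slc7a2, Arg2 and Arg1. Nos2 could not be placed against Odc1 or Gch1, since its values in the 2 libraries lay on either side of theirs. Odc1, at 66.2 ± 7.87 TPM, was above Gch1, at 51.3 ± 6.89 TPM, in both libraries. Ass1 and Asl overlapped, with means of 32.7 ± 18.2 and 32.1 ± 7.89 TPM, and so could not be ordered. The steps from Asl to Slc7a2, at 9.82 ± 4.66 TPM, and from Slc7a2 to Arg2, at 0.370 ± 0.283 TPM, held in both libraries without overlap. With 2 libraries these are descriptions and not tests.

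The libraries differed in depth by little, at 50503160 counts over genes in replicate 1 and 46342327 in replicate 2. Over 14288 genes the chi-square of their counts was 69.9 per degree of freedom, far above that of sampling alone, so both were counted as separate libraries. This value cannot tell a difference between cultures from one between library preparations. All 7 macrophage markers exceeded 10 TPM in both libraries, with sums of 15906 and 16841 TPM. The 3 hepatocyte markers Alb, Apoa1 and Ttr had 0 counts in both, Arg1 being a liver gene too. Of 6 markers of alternatively activated macrophages, 3 reached 1 TPM in both libraries. These were Mrc1 (23.6 and 21.1 TPM), Chil3 (5.95 and 7.40 TPM) and Clec10a (3.67 and 4.58 TPM). The sums over the 6 were 33.9 and 33.6 TPM, most of it from Mrc1, and Retnla had 0 counts in both. The summed level of 9 neutrophil markers was 73.4 TPM in replicate 1 but 7.0 TPM in replicate 2. Most of it came from S100a9 (37.9 and 2.23 TPM) and S100a8 (23.1 and 1.57 TPM). Mmp8 (429 and 182 counts), Ngp (172 and 2 counts) and Ltf (52 counts and 1) were also lower in replicate 2. Camp differed little (11 and 9 counts), Elane and Mpo had at most 5 counts in a library, and Ly6g had 0 in both. The summed level of 6 endothelial markers was 15.7 and 49.4 TPM, most of it from Kdr (11.0 and 41.6 TPM). Vwf was also higher in replicate 2 (176 and 472 counts), and Pecam1 differed less (203 and 221 counts). Cdh5 was lower in replicate 2 (80 and 38 counts), and Emcn and Tie1 were at 1 to 3 counts. The other lists, for fibroblasts and stroma, T and NK cells, B cells and erythroid cells, summed to at most 2.44 TPM. Thus the neutrophil sum was lower and the endothelial sum higher in replicate 2, while those of the macrophage and alternatively activated lists differed little. Any part of these markers in the replicate differences given next was not tested. In bulk RNA, fewer expressing cells and less RNA per cell cannot be told apart.

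Between the libraries, the synthase, the transporter and Ass1 were higher in replicate 2, while Gch1 was lower. The log2 ratio of replicate 2 over replicate 1, from counts scaled with TMM factors (which correct for library size and composition), was 1.26 for Nos2 with a 95% counting interval of 1.22 to 1.30. It was 1.18 for Ass1, with an interval of 1.08 to 1.29. For Slc7a2 it was 0.90, with an interval of 0.82 to 0.99, just short of a 2-fold difference.

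Odc1 and Asl differed less, with log2 ratios of 0.22 and 0.19, and Gch1 stood at -0.29. Their intervals were 0.16 to 0.28 for Odc1, 0.09 to 0.29 for Asl and -0.35 to -0.23 for Gch1. With 1 library on each side, the intervals cover counting error and not the spread between cultures. Of the 6 members that passed the filter on low counts, Nos2 and Ass1 were 2-fold or more apart, both higher in replicate 2. Over all 12543 genes that passed it, 4.21% were that far apart in either direction and 2.30% were higher in replicate 2 and 1.91% in replicate 1, where no member was. Among these 6, 5 were higher in replicate 2 by any amount, where 50.0% of all genes were, and their median log2 ratio was 0.56 beside 0.00 over all genes.

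Arg1 and Arg2 did not pass that filter. Arg2 had a log2 ratio of 1.70 from its 7 and 22 counts, with a wide interval of 0.49 to 3.24, and no ratio is given for Arg1, which was at or under the detection limit in both libraries.

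**Figure D2:**
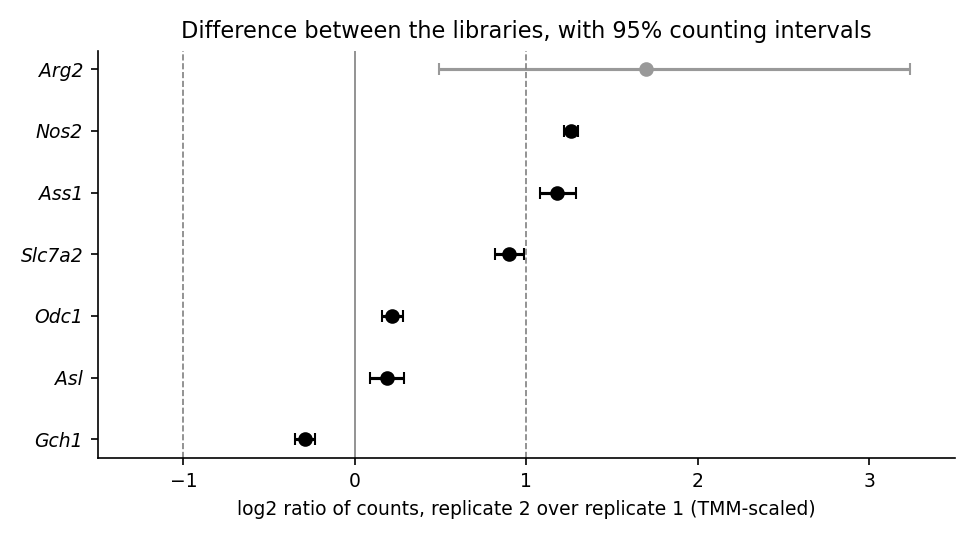
Log2 ratio of scaled counts, replicate 2 over replicate 1 (horizontal axis), for the 7 members with more than 3 counts in a library. Bars are 95% counting intervals, dashed lines mark 2-fold differences, and Arg2, in grey, did not pass the filter on low counts; Nos2 and Ass1 lie past the right dashed line and Gch1, at -0.29, lies left of 0.

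A pattern over 2 libraries holds only a level and a difference. On that measure, the 5 protein-coding genes nearest to Nos2, by Euclidean distance on log2 of TPM plus 1, were Il12b, Sh3bgrl2, Plxna1, Cd81 and Csnk2a2. The nearest, Il12b, encodes the p40 subunit of interleukin-12 and lay at a distance of 0.092, with 50.9 and 128 TPM. By log2 ratio of counts, Il12b (1.32) and Sh3bgrl2 (1.45) were near the 1.26 of Nos2, whereas Plxna1 (0.70), Cd81 (0.60) and Csnk2a2 (0.20) were below it. Those nearest to Slc7a2 were Sipa1l1, Lad1, Mrps35, Zfp236 and Crybg3, at distances of 0.043 to 0.148. Of these, Sipa1l1 stood at 6.70 and 12.8 TPM. By log2 ratio of counts, Sipa1l1 (1.00) and Lad1 (1.12) were near the 0.90 of Slc7a2, whereas Mrps35 (0.30), Zfp236 (0.11) and Crybg3 (0.34) were not, so the likeness in TPM did not extend to reads for these.

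Most Slc7a2 transcripts carried the 140-base exon printed above. Slc7a2-203, which has that exon and starts 12552 bases into the gene, was the leading transcript in both libraries, at 3.94 and 8.72 TPM, or 60.3% and 66.5% of the gene. Slc7a2-202 shares the exon but starts at the first base of the gene and ends 4252 bases before its last annotated base. It stood at 0.510 and 2.40 TPM. Together the transcripts with the 140-base exon held 68.1% of the Slc7a2 level in replicate 1 and 84.8% in replicate 2.

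Slc7a2-201, which has the 137-base exon, starts 16 bases into the gene and runs to its end, was level between the libraries at 1.97 and 1.84 TPM. Slc7a2-204, also with the 137-base exon, was at 0 and 0.0500 TPM. The summed level of transcripts with the 137-base exon was thus 1.97 and 1.89 TPM, while that of transcripts with the 140-base exon was 4.45 and 11.1 TPM. In these values the replicate difference of Slc7a2 lay in the transcripts with the 140-base exon. In the second quantification these stood at 7.02 and 14.3 TPM, but they held 96.4% and 98.1% of the gene there. That quantification therefore could not place a difference of this size elsewhere.

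**Figure D3:**
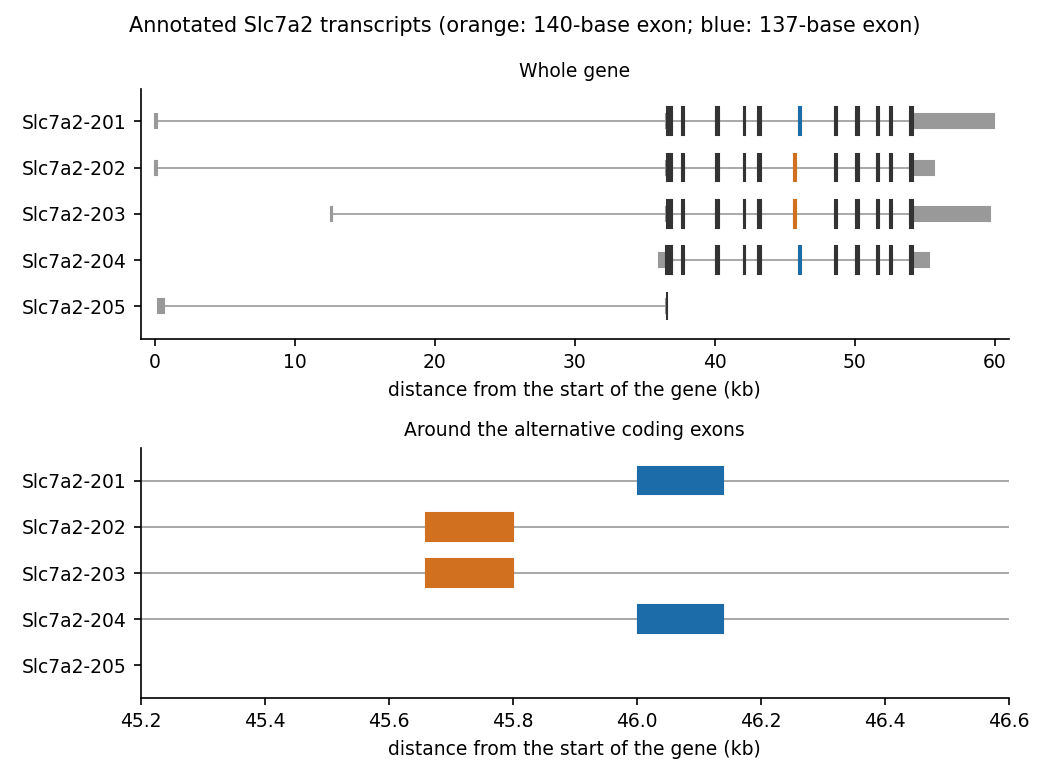
The 5 annotated Slc7a2 transcripts, drawn to scale as distance from the start of the gene in kb, for the whole gene (top) and around the alternative exons (bottom). Tall boxes are coding, low grey boxes are untranslated and lines are introns; the 140-base exon (orange) is in Slc7a2-202 and Slc7a2-203 and the 137-base exon (blue) in Slc7a2-201 and Slc7a2-204.

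The size of the minor fraction depended on the quantification. In the second quantification the transcripts with the 137-base exon stood at 0.182 and 0.209 TPM, which was 2.51% and 1.43% of the gene, and those with the 140-base exon held 96.4% and 98.1%. Slc7a2-201 had 547 and 467 counts in the first quantification and 56.3 and 40.8 in the second. Slc7a2-202 differed the opposite way, with 63.7 and 272 counts in the first and 348 and 811 in the second. Slc7a2-203 differed less, at 1053 and 2129.5 counts in the first and 1341 and 2125 in the second. The gene level was close in both, at 6.53 and 13.1 TPM against 7.28 and 14.6 TPM. The annotation gives Slc7a2-201 alone the final 238 bases of the gene, and Slc7a2-203 ends before them. Why the quantifications differ was not tested.

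By their start, Slc7a2-201 and Slc7a2-202, which share the exon boundary of the gene's first exon, held 35.2% ± 3.99 of the level in the first quantification and 41.0% ± 5.78 in the second. The start of Slc7a2-203 held 63.4% ± 4.37 and 57.9% ± 5.63. The larger share of the Slc7a2-203 start was found in both libraries and both quantifications. Slc7a2-205, a 519-base transcript, had about 1 count in each library, and Slc7a2 overlaps the lincRNA gene Gm26584 on the opposite strand.

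**Figure D4:**
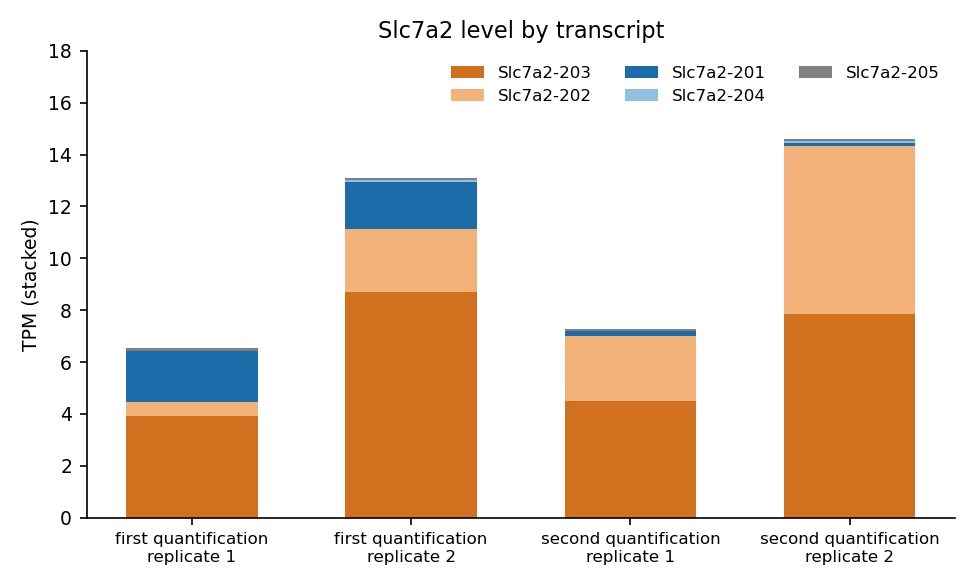
Slc7a2 level in TPM (vertical axis) stacked by transcript, for each replicate in the first and second quantification. Orange shades are transcripts with the 140-base exon and blue shades those with the 137-base exon; the blue share is 30.2% and 14.4% in the first quantification and 2.51% and 1.43% in the second.

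Among the remaining members with reads, Ass1-201 held 99.8% ± 0.263 of Ass1. The expected counts of Nos2, Gch1, Asl, Arg1 and Arg2 were whole numbers in both libraries, whereas those of Ass1 and Odc1 in both and of Slc7a2 in replicate 2 were fractional. A fractional gene count arises where reads are divided between genes. Gch1 overlaps the processed pseudogenes Gm49134 and Gm18811, and Odc1 hosts the snoRNA gene Gm22748.

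Around the members, 10 lists of related genes held 47 further genes. Of these, 19 reached 10 TPM in both libraries, a level that 11.2% of all annotated genes and 27.5% of those with a protein-coding transcript reached. Under 1 TPM in both were 16, beside 44230 of all 55536 annotated genes and 11784 of the 21901 with a protein-coding transcript. The filter on low counts was passed by 33, beside 12543 of all annotated genes and 11147 of those with a protein-coding transcript. None of the 33 was 2-fold or more apart between the libraries, a count near the 4.21% of all genes that were, and their median log2 ratio was -0.06.

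In the tetrahydrobiopterin list, 6 of the 8 genes, Gch1 included, reached 1 TPM in both libraries, and Gchfr and Pcbd1 were near the detection limit. That level was reached by 19.1% of all annotated genes and 44.6% of those with a protein-coding transcript. Pts, which acts after Gch1, stood at 47.0 and 37.0 TPM, and Qdpr, which regenerates the cofactor, at 45.8 and 53.4 TPM. Spr, the last enzyme of synthesis, was lower at 9.72 and 6.73 TPM. Gchfr, the feedback regulator of Gch1, had 3 counts and 1 count. Pcbd1, which recycles the cofactor in phenylalanine breakdown, had 1 count and 0, whereas its relative Pcbd2 stood at 29.9 and 21.4 TPM. Of the 6 genes in this list that passed the filter, Gch1 included, 5 were lower in replicate 2. Qdpr, at a log2 ratio of 0.07, was the exception, and the median over the 6 was -0.38. Over all genes that passed the filter, 50.0% were higher in replicate 2, and the median log2 ratio was 0.00.

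Among transporters, Slc3a2, the heavy chain that pairs with several light chains, was highest at 307 and 341 TPM. Slc7a7, a light chain that exchanges cationic for neutral amino acids, stood at 82.7 and 59.1 TPM, above Slc7a2 in both libraries but lower in replicate 2, with a log2 ratio of -0.51. The urea cycle genes that act before Ass1 in liver, Nags, Cps1 and Otc, had 0 counts in both libraries. Of the 7 genes in the urea and citrulline list, Ass1 and Asl alone reached 1 TPM in both, as did 19.1% of all annotated genes and 44.6% of those with a protein-coding transcript.

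Further genes of ornithine use were present beside Odc1, while the arginases, which make ornithine, were at or near the detection limit. Oat, which converts ornithine toward proline and glutamate, stood at 31.0 and 40.1 TPM, while Pycr1 of proline synthesis had 2 and 15 counts. In polyamine synthesis after Odc1, Amd1 stood at 39.8 and 36.2 TPM, Sms at 22.8 and 25.7 TPM and Srm at 8.49 and 7.34 TPM. Amd1 and its near-identical copy Amd2 may share reads. Sat1, which acetylates polyamines for breakdown and export, was the highest gene of all the lists at 583 and 580.2 TPM.

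Odc1 was below the antizyme that directs its protein to degradation: Oaz1 stood at 278 and 246 TPM, so Odc1 was at 0.218 and 0.292 times its level. Azin1, which holds antizyme away from Odc1, stood at 122 and 154 TPM. Of other genes that use arginine or its methylated forms, the methyltransferase Prmt1 was at 52.7 and 52.4 TPM and Gatm, of creatine synthesis, at 28.8 and 18.1 TPM. Agmat had 0 counts in both libraries, and Ddah1, which breaks down a methylated arginine that inhibits nitric oxide synthases, had 1 and 3 counts. The nitric oxide receptor subunits Gucy1a1 and Gucy1b1 had at most 5 counts in a library, whereas Adh5, which reduces the nitric oxide carrier S-nitrosoglutathione, stood at 54.6 and 49.9 TPM.

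**Figure D5:**
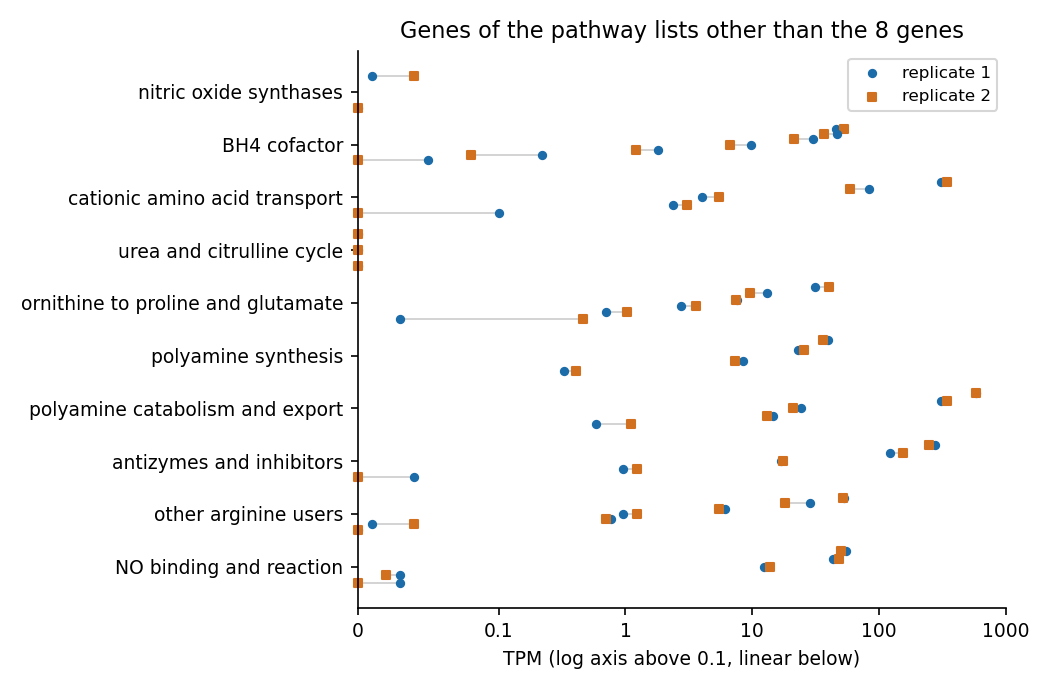
Level in TPM (horizontal axis, logarithmic above 0.1 and linear below) of the genes in each of the 10 lists other than the 8 members, with circles for replicate 1 and squares for replicate 2 joined by a line; genes in more than 1 list appear in each. Sat1, at 583 and 580.2 TPM, lies farthest right, and Nags, Cps1 and Otc lie at 0.

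Within each library, 9 gene pairs were set side by side on log2 of TPM plus 1. In 6 of them the first gene exceeded the second in replicate 1 and in replicate 2. Which gene came first was a choice, so this count depends on it. The pairs with Arg1, Arg2 or Gchfr also rest on a gene at or near the detection limit. Nos2 over Ass1 was 1.28 and 1.38, so the synthase and the recycling enzyme kept nearly the same ratio. This follows from their similar log2 ratios between the libraries, 1.26 and 1.18, and is no separate result. Nos2 over Gch1 was -0.18 and 1.35, and Ass1 over Asl was -0.40 and 0.27, so neither had a common direction. Slc7a2 over Slc7a1 was 0.59 and 1.13.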

How the data were processed

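The expected counts, TPM and FPKM of the first quantification are the authors' deposited values, 1 table per library, made from a transcriptome alignment on mm10 with GENCODE M21, per the README deposited with each sample. The estimated counts and TPM of the second quantification were deposited as transcript tables made from the reads, per the same README, and were summed per gene. Aligner, quantifier and strand handling: not given in the sources used here. Expected counts were rounded for count calculations. Counts were filtered with filterByExpr and scaled with TMM in edgeR 4.0.16 (R 4.3.3, prior count 0.5), a step tested on simulated data. DESeq2 1.42.0 gave alternative size factors. Intervals are exact Clopper-Pearson, or exact Poisson for ratios to Arg1, at 95%, and cover counting error only. Exons were aligned with Biopython 1.88. Related and marker genes came from 10 and 9 lists, with Pycr3 found as Pycrl. The members and lists were chosen with earlier results of these data known. The text names all members, listed genes starting from the highest and lowest, and the 5 genes nearest to Nos2 and to Slc7a2. With 1 group there was no test between conditions and no pairing. Values of some listed genes are not reported here.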

Additional observations from a re-analysis of the deposited data

How the results depend on the processing

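The share of Slc7a2 held by Slc7a2-203 was 63.4%, but 57.9% in the second quantification and 68.7% as a share of expected counts, and 60.3% to 66.5% with either replicate left out. The share with the 140-base exon was 76.5%, but 97.2% in the second quantification, and 68.1% to 84.8% with either replicate left out. The median member level was 32.4 TPM and 23.2 to 41.6 TPM in a single library, the number at 10 TPM was 5 to 6, the number 2-fold or more apart was 2, or 3 with Arg2 where no filter was used, and the number of pairs with the first gene higher was 6 to 8. Nos2 over Arg1 was 6.24 with a pseudocount of 1 TPM and 9.21 with 0.1 TPM, by the construction of that ratio. The Asl level was 32.1 TPM, but 23.1 TPM from Asl-205 alone. The log2 ratios of the 7 members with more than 3 counts kept their direction and stayed in their counting intervals under other size factors, filters, a prior count of 5 and the second quantification. The 140-base exon share and the Asl-205 level were chosen after seeing the data. No paired analysis was possible because there is 1 group.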
